A study of Mus musculus with 10 samples.

Results

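The genes described here are 10 genes of the circadian clock, Per1, Per2, Per3, Cry1, Cry2, Clock, Dbp, Nr1d1, Nr1d2 and Bhlhe40, in the hippocampus of mice that went through drug-induced status epilepticus (SE). They were taken by symbol from a table of 15900 genes, in which each of the 10 symbols matched 1 row. All 10 were detected in all 10 libraries. At 6 h after SE the levels of Per1, Cry1, Cry2 and Bhlhe40 were above those of both control mice in both SE mice. The levels of Per3, Dbp, Nr1d1 and Nr1d2 were below those of both control mice. Of all genes tested, 49.9% kept the groups apart in this way, in either direction. None of the members' differences passed limma's test across all genes. DESeq2 called Cry1 and Per1, among 1107 of the 15851 genes tested.

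The animals were male ICR (CD-1) mice, 9 to 10 weeks old and kept under a 12 h light/dark cycle. The pre-SE group is labelled untreated, and the study's methods give control mice saline in place of pilocarpine (PILO), a muscarinic agonist that provokes prolonged seizures. Mice of the other groups received methyl scopolamine, which limits the action of PILO outside the brain, then PILO, and then diazepam to end the seizures, and whether the pre-SE mice also received methyl scopolamine and diazepam is not given plainly in the sources used here. The SE 6 h and SE 2 days groups were sampled at those intervals after SE, and the SE + LEV 6 h and SE + LEV 2 days groups were in addition given the antiepileptic drug levetiracetam (LEV) by mouth, as 1 dose and as 5 doses respectively. Each group held 2 mice. Whole hippocampal RNA was measured by cap analysis of gene expression (CAGE), which counts sequence tags from the capped 5′ ends of transcripts. The levels are in CPM, tags scaled to a common library total, and were compared between mice and not between genes.

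The hour of the day at which each group was sampled is not given in the sources used here. A circadian gene changes its level with that hour even in an undisturbed animal. For pre-SE against the other groups, and for 6 h against 2 days, the group and the sampling hour therefore cannot be told apart. The LEV groups share a nominal interval after SE with their SE groups. Whether they also shared the hour is not given, so LEV and the sampling hour cannot be told apart. In whole tissue, fewer cells of a type and less RNA per cell cannot be told apart either.

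The mammalian clock is a transcriptional feedback loop. CLOCK pairs with BMAL1, the product of Arntl, binds E-boxes and drives the Per and Cry genes, whose proteins then inhibit CLOCK and BMAL1. The second loop runs through the nuclear receptors REV-ERBα and REV-ERBβ, made from Nr1d1 and Nr1d2, which repress Arntl, and the third through D-boxes, where DBP and its relatives TEF and HLF activate and NFIL3 represses. BHLHE40, also called DEC1, represses at E-boxes. Per1 and Per2 are also immediate targets of CREB, the factor through which neuronal activity, light and cAMP reset the clock, and clock genes cycle in the hippocampus as well as in the suprachiasmatic nucleus.

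Promoter windows are printed for the 3 members whose windows held the E-box CACGTG or a D-box, which are among the sites at which clock proteins act. The windows of Cry2 and Nr1d1, which held an E′-box but neither of these, are not printed. Each window runs from 250 bases before to 50 bases after the start of the RefSeq gene (build GRCm38.p6) and is written 5′ to 3′ on the gene's strand. Per1 lies at chr11:69098699-69098998 on the plus strand and is shown at its upstream start. Per3 lies at chr4:151044616-151044915 and Cry1 at chr10:85185005-85185304, both on the minus strand. Capitals mark the E-box CACGTG, the E′-box CACGTT, the D-boxes TTATGTAA and TTATGCAA and the cAMP response element part TGACG, searched on both strands.
Per1: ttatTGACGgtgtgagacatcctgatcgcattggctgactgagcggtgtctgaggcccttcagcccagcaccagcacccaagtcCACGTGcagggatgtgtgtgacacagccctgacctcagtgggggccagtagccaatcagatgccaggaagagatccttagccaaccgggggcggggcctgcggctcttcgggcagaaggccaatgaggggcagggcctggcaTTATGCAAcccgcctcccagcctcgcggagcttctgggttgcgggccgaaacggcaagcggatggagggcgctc
Per3: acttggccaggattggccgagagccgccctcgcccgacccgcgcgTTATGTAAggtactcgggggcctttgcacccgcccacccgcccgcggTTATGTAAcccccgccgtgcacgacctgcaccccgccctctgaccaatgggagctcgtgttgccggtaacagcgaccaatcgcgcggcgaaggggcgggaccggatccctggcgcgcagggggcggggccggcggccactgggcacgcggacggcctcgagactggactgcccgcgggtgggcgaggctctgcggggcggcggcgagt
Cry1: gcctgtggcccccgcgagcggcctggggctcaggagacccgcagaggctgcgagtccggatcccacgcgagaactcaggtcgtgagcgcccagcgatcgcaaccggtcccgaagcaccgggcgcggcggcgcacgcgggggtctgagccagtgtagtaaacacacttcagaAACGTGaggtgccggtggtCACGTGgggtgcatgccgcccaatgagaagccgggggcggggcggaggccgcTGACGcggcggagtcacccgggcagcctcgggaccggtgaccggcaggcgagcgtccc

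The Per1 window held TGACG 246 bases, CACGTG 166 bases and TTATGCAA 24 bases before the start. The Per3 window held TTATGTAA at 205 and at 158 bases before the start and no other motif of the set. The Cry1 window held the E′-box, read as AACGTG, at 79 bases, CACGTG at 60 bases and TGACG at 8 bases before the start. Of the 32851 windows in the table, 7.15% held CACGTG, 4.68% the E′-box, 1.66% either D-box and 20.8% TGACG. The full element TGACGTCA stood in 1.79% of windows, and TAGGTCA or TGGGTCA, the cores bound by ROR and REV-ERB receptors, in 6.45%. TGACG also forms part of TGACGTCA. Among the other members, the Cry2 window held an E′-box at 166 and TGACG at 209 bases, Nr1d1 an E′-box at 28 bases, and the second start of Per1 TGACG at 132 bases before the start. The windows of Clock, Dbp and Nr1d2 held none of these letters, and Per2 and Bhlhe40 have no entry in the table, which left 8 of the 10 members with a window.

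The plot of the levels by mouse shows the 10 members over the 5 groups. The highest mouse exceeded the lowest by between 1.6-fold, for Clock, and 8.47-fold, for Dbp.

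**Figure D1:**
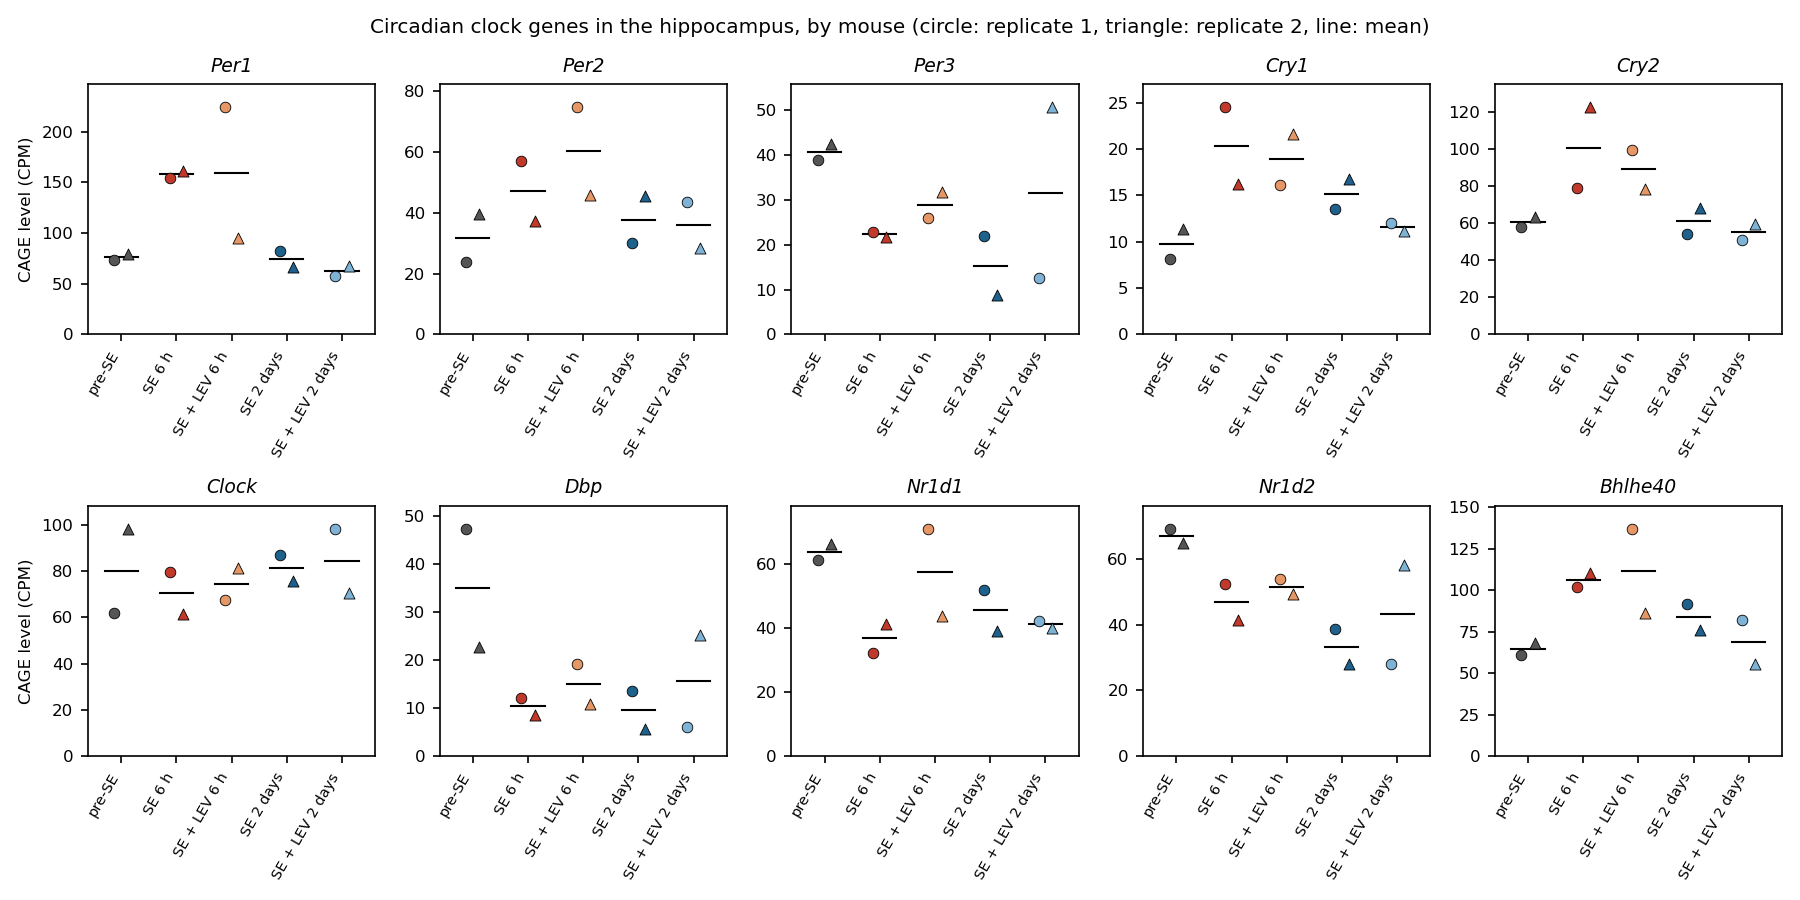
CAGE level in CPM of each clock gene (vertical axes, each from 0) in the 2 mice of each of the 5 groups, with replicate 1 as a circle, replicate 2 as a triangle and the group mean as a line. Per1 was 155 and 161 CPM in the SE 6 h mice against 73.9 and 79.3 CPM before SE, while Dbp was 12.03 and 8.63 CPM against 47.3 and 22.6 CPM.

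Per1 (mm9 chr11:68908719-68923462), whose protein is the activity-inducible arm of the inhibitory complex, was 73.9 and 79.3 CPM in the pre-SE mice. It was 155 and 161 CPM in the SE 6 h mice, 224 and 94.97 CPM in the SE + LEV 6 h mice, 82.6 and 66.8 CPM in the SE 2 days mice and 57.2 and 67.5 CPM in the SE + LEV 2 days mice. All 4 mice sampled at 6 h lay above the other 6, and the SE 2 days and pre-SE mice overlapped. The mean was 158 ± 4.6 CPM (SD, n = 2) in the SE 6 h group and 76.6 ± 3.87 CPM (SD, n = 2) before SE, which is 2.06-fold and a log2 difference of 1.04 (SE 0.34, 95% interval 0.28 to 1.81). The adjusted p by limma over all genes was 0.154, and the unadjusted p was 0.0122. Limma on only the pre-SE and SE 6 h groups called 0 members. In the main fit the shared estimate of spread included the SE + LEV 6 h mice, with their 2.36-fold gap. With replicate 1 of that group left out the adjusted p was 0.0429, and with replicate 2 left out it was 0.0428.

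Per2 (chr1:93312561-93355907), the partner of PER1 in the same complex, was 23.7 and 39.5 CPM before SE and 57.1 and 37.4 CPM at 6 h. It was 74.7 and 45.7 CPM in the SE + LEV 6 h mice, 29.9 and 45.4 CPM in the SE 2 days mice and 43.6 and 28.4 CPM in the SE + LEV 2 days mice. Its highest value was in the same SE + LEV 6 h mouse as that of Per1, but the SE 6 h and pre-SE mice overlapped, and no 2 groups next to each other in the order of means were apart. The log2 difference at 6 h was 0.59 (SE 0.38, adjusted p = 0.444 by limma).

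Per3 (chr4:150377761-150418774), a member of the family that is dispensable for rhythmicity, went the other way from Per1. It was 38.7 and 42.4 CPM before SE, 22.9 and 21.6 CPM at 6 h, 25.9 and 31.8 CPM in the SE + LEV 6 h mice and 21.8 and 8.74 CPM at 2 days. In the SE + LEV 2 days group it was 12.5 CPM in replicate 1 and 50.5 CPM in replicate 2, the highest of all 10 mice. The 6 mice of the SE 6 h, SE + LEV 6 h and SE 2 days groups all lay below the pre-SE mice. The log2 difference from pre-SE was -0.86 at 6 h (SE 0.58, adjusted p = 0.463 by limma) and -1.55 at 2 days (SE 0.58, adjusted p = 0.168).

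Cry1 (chr10:84594447-84647799) and Cry2 (chr2:92243803-92274200) encode the cryptochromes, the stronger repressors of CLOCK and BMAL1. Cry1 was 8.17 and 11.4 CPM before SE, 24.5 and 16.2 CPM at 6 h and 16.1 and 21.6 CPM in the SE + LEV 6 h mice. At 2 days it was 13.5 and 16.8 CPM without LEV and 12.1 and 11.2 CPM with it. Every SE 6 h and SE + LEV 6 h mouse lay above both pre-SE mice, and so did both SE 2 days mice. Its log2 difference at 6 h was 1.04 (SE 0.32, 95% interval 0.33 to 1.74), or 2.08-fold, with an adjusted p of 0.127 by limma, the lowest of the 10 members in that comparison.

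Cry2 was 58.2 and 63.6 CPM before SE, 79.0 and 123 CPM at 6 h and 99.7 and 78.5 CPM in the SE + LEV 6 h mice. It was 54.5 and 68.1 CPM at 2 days without LEV and 51.0 and 59.6 CPM with it. All 4 mice at 6 h were above all 6 others, as for Per1. The log2 difference at 6 h was 0.69 (SE 0.26, adjusted p = 0.209 by limma), and at 2 days it was 0.00 (95% interval -0.58 to 0.59).

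Clock (chr5:76639992-76733817), the activator and the only member of the positive arm, was the flattest member. It was 61.9 and 98.3 CPM before SE, 79.6 and 61.5 CPM at 6 h and 67.4 and 81.2 CPM in the SE + LEV 6 h mice. At 2 days it was 87.1 and 75.9 CPM without LEV and 98.1 and 70.7 CPM with it. The pre-SE mice spanned the values of all other mice except SE 6 h replicate 2. The log2 difference at 6 h was -0.16 (95% interval -0.78 to 0.47), and its sign turned when pre-SE replicate 2 (0.18) or SE 6 h replicate 2 (0.03) was left out.

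The nuclear receptor genes Nr1d1 (chr11:98629246-98636647) and Nr1d2 (chr14:19036568-19071641) were highest before SE on average. Nr1d1 was 61.3 and 66.1 CPM before SE, 32.2 and 41.3 CPM at 6 h, 71.0 and 43.7 CPM in the SE + LEV 6 h mice, 51.9 and 39.1 CPM at 2 days and 42.1 and 40.05 CPM in the SE + LEV 2 days mice. Both mice of every group other than SE + LEV 6 h lay below the pre-SE mice. Its mean at 6 h was 0.578 times that before SE, a log2 difference of -0.80 (SE 0.28, 95% interval -1.42 to -0.18, adjusted p = 0.174 by limma), and at 2 days the log2 difference was -0.50 (adjusted p = 0.366).

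Nr1d2 was 69.3 and 65.1 CPM before SE, 52.4 and 41.5 CPM at 6 h and 54.1 and 49.2 CPM in the SE + LEV 6 h mice. It was 38.7 and 28.1 CPM at 2 days without LEV and 28.1 and 58.2 CPM with it. All 8 mice given PILO lay below both pre-SE mice. The log2 difference was -0.53 at 6 h (SE 0.33, adjusted p = 0.434 by limma) and -1.02 at 2 days (SE 0.33, 95% interval -1.76 to -0.29, adjusted p = 0.111).

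Dbp (chr7:52960458-52965525), the clock output gene and activator at D-boxes, had the widest range of the members. It was 47.3 and 22.6 CPM before SE, 12.03 and 8.63 CPM at 6 h, 19.1 and 10.8 CPM in the SE + LEV 6 h mice and 13.4 and 5.59 CPM at 2 days. In the SE + LEV 2 days group it was 6.06 CPM in replicate 1 and 25.3 CPM in replicate 2. Each mouse given PILO except SE + LEV 2 days replicate 2 lay below both pre-SE mice. The mean was 0.296 times the pre-SE mean at 6 h and 0.272 times at 2 days, with log2 differences of -1.67 (SE 0.66, 95% interval -3.15 to -0.20, adjusted p = 0.225 by limma) and -1.90 (SE 0.66, 95% interval -3.38 to -0.43, adjusted p = 0.139). The lowest Dbp count, in SE + LEV 6 h replicate 2, was 114 tags (95% Poisson interval 94.0 to 137, which covers counting error only), so counting error was small beside the spread between mice.

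Bhlhe40 (chr6:108610623-108616919), a repressor that hypoxia, growth factors and neuronal activity also induce, was 61.1 and 68.2 CPM before SE and 102 and 110 CPM at 6 h. It was 137 and 86.4 CPM in the SE + LEV 6 h mice, 91.5 and 75.7 CPM at 2 days and 82.2 and 55.2 CPM in the SE + LEV 2 days mice. Both mice of the SE 6 h, SE + LEV 6 h and SE 2 days groups lay above the pre-SE mice. Its log2 difference at 6 h was 0.71 (SE 0.28, 95% interval 0.09 to 1.33), or 1.64-fold, with an adjusted p of 0.22 by limma.

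For SE 6 h against pre-SE, 0 of the 10 members passed limma's test at an adjusted p of at most 0.05, where 2.96% of the 15851 genes tested passed. At an unadjusted p under 0.05 there were 6 members, Per1, Cry1, Cry2, Dbp, Nr1d1 and Bhlhe40, where 17.7% of all genes passed. The groups did not overlap for 8 members, all but Per2 and Clock, against 49.9% of all genes. The quasi-likelihood test of edgeR on the recovered tag counts called 0 members, and DESeq2 called Cry1 (adjusted p = 0.0125) and Per1 (adjusted p = 0.0349). In this comparison DESeq2 called 1107 of all 15851 genes. Limma also called 2 of 4 reactive astrocyte markers, whose sum was 339 and 308 CPM before SE and 563 and 975 CPM at 6 h, and 2 of 4 microglia markers, whose sum was 284 and 340 CPM against 228 and 210 CPM, and their part in the members' differences was not tested. The median size of the members' log2 differences was 0.76, beside 0.37 over all genes tested. The signed median was 0.22 for the members and -0.13 for all genes, and rescaling by the median of ratios moved the latter by 0.13. With 2 mice a group an exact permutation test of a single gene cannot give a p below 0.333, so the adjusted p-values rest on the spread that limma shares across groups and genes, and they measure only the spread between these mice.

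For SE 2 days against pre-SE, 0 of 10 members passed the adjusted threshold in limma, where 5.66% of all genes passed, and edgeR also called 0. Per3, Dbp and Nr1d2, the 3 members at an unadjusted p under 0.05 (19.8% of all genes), were all lower at 2 days. DESeq2 called Nr1d2 (adjusted p = 0.048) and Dbp (adjusted p = 0.0235), where it called 1607 of all 15851 genes. Limma on only the pre-SE and SE 2 days groups, without any LEV mice, called 0 members. The groups did not overlap for 6 members, Per3, Cry1, Dbp, Nr1d1, Nr1d2 and Bhlhe40, against 52.0% of all genes. Per1 overlapped the pre-SE mice at 2 days, with a log2 difference of -0.04 (95% interval -0.80 to 0.72). The log2 difference was 0.64 for Cry1 (95% interval -0.06 to 1.34) and 0.37 for Bhlhe40 (95% interval -0.25 to 0.99). Leaving out SE + LEV 2 days replicate 1 brought the adjusted p to 0.0346 for Nr1d2, 0.0374 for Per3 and 0.0476 for Dbp, and leaving out replicate 2 of that group brought it to 0.0353, 0.0389 and 0.0492, since either step takes the wide spread of that group out of the fit. Reactive astrocyte markers moved with this comparison: the summed level of Gfap, Vim, Lcn2 and Serpina3n was 308 to 339 CPM before SE and 3017 to 4720 CPM at 2 days, and all 4 were called higher. Other cell types moved as well: microglia markers summed to 284 and 340 CPM before SE and 642 and 801 CPM at 2 days (1 of 4 called by limma), and markers of infiltrating myeloid cells to 6.07 and 5.66 against 33.8 and 73.0 CPM (2 of 4 called). Oligodendrocyte markers summed to 4516 and 4969 against 1568 and 2455 CPM (0 of 4 called by limma or edgeR, 2 by DESeq2, 4 at an unadjusted p under 0.05), and astrocyte markers to 2192 and 2066 against 1230 and 1294 CPM (1 of 5 called, 5 at an unadjusted p under 0.05). The part of these cell types in the members' differences was not tested.

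**Figure D2:**
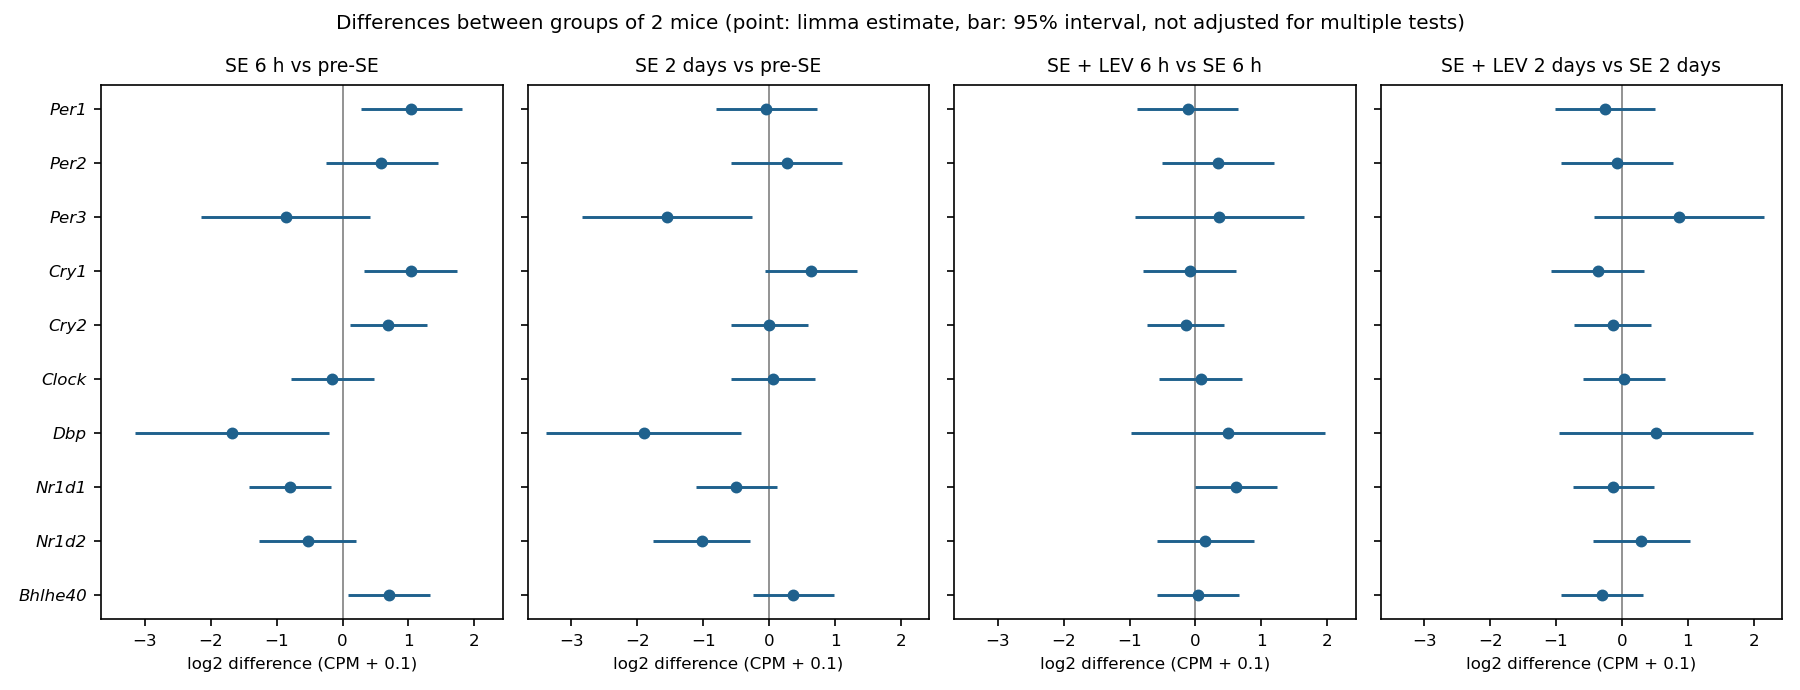
Log2 differences on the log2(CPM + 0.1) scale (horizontal axes) of the 10 clock genes (rows) in 4 comparisons of 2 mice against 2, as points with 95% intervals that are not adjusted for the number of genes. At 6 h the intervals of Per1, Cry1, Cry2 and Bhlhe40 lie above 0 and those of Dbp and Nr1d1 below it, at 2 days those of Per3, Dbp and Nr1d2 lie below 0, and in the LEV comparisons every interval spans 0.

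The LEV comparisons set mice with the drug against mice without it at the same nominal interval after SE. Their sampling hours are not given. For SE + LEV 6 h against SE 6 h, limma called 0 of 10 members (0.0126% of all genes), and none had an unadjusted p under 0.05 (4.58% of all genes). For SE + LEV 2 days against SE 2 days it called 0 members (0.0% of all genes), again with none at an unadjusted p under 0.05 (2.7% of all genes). Neither edgeR nor DESeq2 called a member in either comparison. The intervals do not exclude sizeable differences: for Per1 at 6 h the log2 difference was -0.11 (95% interval -0.88 to 0.65), and it was 0.50 without SE + LEV 6 h replicate 2. The groups did not overlap for 2 members at 6 h, against 29.5% of all genes, both of them higher with LEV. These were Nr1d1, with a log2 difference of 0.61 (95% interval -0.01 to 1.23, unadjusted p = 0.0523 by limma), and Per3, with 0.36 (95% interval -0.92 to 1.65). At 2 days they did not overlap for 1 member, Cry1, which was 0.37 lower on the log2 scale (a difference of -0.37, 95% interval -1.07 to 0.33), against 27.4% of all genes. The test of whether the LEV difference itself changed between the times called 0 members (0.0% of all genes), with none at an unadjusted p under 0.05 (2.38% of all genes), and edgeR and DESeq2 called none. Its lowest unadjusted p was 0.0867, for Nr1d1, at a log2 difference of -0.74.

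Against pre-SE, the LEV groups gave the following. For SE + LEV 6 h, limma called 0 of 10 members (0.322% of all genes), while 4 had an unadjusted p under 0.05 (9.38% of all genes). These were Per1 (log2 difference 0.93), Per2 (0.93), Cry1 (0.95) and Bhlhe40 (0.75), all higher with SE and LEV. For SE + LEV 2 days, 0 members were called (2.85% of all genes) and 1 had an unadjusted p under 0.05 (10.8% of all genes), which was Nr1d1 at -0.63. The quasi-likelihood test of edgeR and DESeq2 called 0 members in either comparison. These comparisons share the pre-SE mice with those of the SE groups, so likeness between them is not independent evidence.

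Between the times, for Per1, Cry2 and Bhlhe40, both 2 days mice lay below both 6 h mice, with and without LEV. The share of all genes apart in this way was not counted for the groups with LEV. The mice of the 2 times were different animals. For SE 2 days against SE 6 h the log2 difference was -1.09 for Per1 (SE 0.34, adjusted p = 0.114 by limma) and -0.69 for Cry2 (SE 0.26, adjusted p = 0.181). They were the 2 members at an unadjusted p under 0.05 (20.1% of all genes), and 0 passed the adjusted threshold (4.25% of all genes). The groups were apart for 4 members, Per1, Cry2, Nr1d2 (-0.50) and Bhlhe40 (-0.35), against 51.1% of all genes. Per1 was called by DESeq2 (adjusted p = 0.0291), by limma on these groups alone (adjusted p = 0.0488) and by limma without SE + LEV 6 h replicate 1 (0.0318) or replicate 2 (0.0319), but edgeR called 0 members. For SE + LEV 2 days against SE + LEV 6 h the differences were -1.23 for Per1 (adjusted p = 0.13 by limma), -0.68 for Cry2 and -0.69 for Bhlhe40. These were the 3 members at an unadjusted p under 0.05 (11.9% of all genes), with 0 called (2.14% of all genes). DESeq2 called Per1 there (adjusted p = 0.00508), limma called it without SE + LEV 6 h replicate 2 (0.0362), and edgeR called 0 members. Over the 5 groups together, the F test of limma called 0 members (5.77% of all genes) and gave an unadjusted p under 0.05 for Per1, Cry1 and Cry2 (19.0% of all genes). Per1 was nearest to the threshold, at an adjusted p of 0.0929, and was called when either SE + LEV 6 h mouse was left out. DESeq2 called these 3 members in its likelihood-ratio test, where it called 2195 of all 15851 genes, and edgeR called 0 members. Over all genes DESeq2 called 1293 in SE 2 days against SE 6 h and 626 in SE + LEV 2 days against SE + LEV 6 h.

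The mice of the SE + LEV 2 days group differed more from each other in 3 members than any other pair of group mates did. Replicate 2 exceeded replicate 1 by 2.04 on the log2 scale for Dbp, 2.01 for Per3 and 1.05 for Nr1d2, where the median size of this gap over all genes tested was 0.38. In replicate 2 Dbp lay between the pre-SE mice at 25.3 CPM, Per3 above them at 50.5 CPM and Nr1d2 below them at 58.2 CPM. In replicate 1 they were 6.06, 12.5 and 28.1 CPM, at the level of the SE 2 days mice. The other 7 members differed by at most 0.62 in size between the same mice. The log2 difference of SE + LEV 2 days from SE 2 days was therefore set by a single mouse for these genes: it was 0.86 for Per3, 0.51 for Dbp and 0.29 for Nr1d2, and -0.15, -0.51 and -0.23 without replicate 2. For Dbp it was also -0.12 without SE 2 days replicate 2. The same mice differed in the summed reactive astrocyte markers, at 4314 CPM in replicate 1 and 2760 CPM in replicate 2, and in markers of infiltrating myeloid cells, at 79.2 and 20.7 CPM. Choroid plexus markers differed most, at 1499 CPM in replicate 1 and 25.8 CPM in replicate 2, and the sums were 2903 and 4154 CPM for oligodendrocytes and 1340 and 1702 CPM for astrocytes. Their part in the difference between the mice was not tested.

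Wide gaps also occurred in groups without LEV. The log2 gap (replicate 2 minus replicate 1) in the SE 2 days group was -1.31 for Per3 and -1.25 for Dbp. In the pre-SE group it was -1.06 for Dbp. In the SE + LEV 6 h group, replicate 1 exceeded replicate 2 most for Per1, Per2, Nr1d1, Bhlhe40 and Dbp. The gaps were -1.24, -0.71, -0.70, -0.66 and -0.81. Choroid plexus markers were 858 CPM in replicate 1 and 38.9 CPM in replicate 2 of that group, and their part in these gaps was not tested. Dbp and Per3 were the members that varied most between group mates, with a pooled standard deviation of 0.88 and 0.77 on the log2 scale, beside a median of 0.33 over all genes. Cry2, Nr1d1, Cry1, Clock and Bhlhe40, at 0.26 to 0.30, varied less than that median.

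Over the 10 mice the members fell into patterns that the selection did not use. The plot of Pearson r between members shows Per3, Dbp and Nr1d2 together, with r = 0.92 for Per3 and Nr1d2, 0.90 for Dbp and Nr1d2 and 0.85 for Dbp and Per3. Per1 went with Cry2 (r = 0.86) and with Bhlhe40 (r = 0.84), and Per2 with Bhlhe40 (r = 0.75) and Cry1 (r = 0.71). The most opposed members were Cry1 and Dbp (r = -0.58), Cry2 and Clock (r = -0.56) and Cry1 and Nr1d1 (r = -0.53). Among genes with a mean of at least 1 CPM, 10.9% were more opposed to Cry1 than Dbp was. The share was 20.0% for Cry2 and Clock and 15.2% for Cry1 and Nr1d1. For the positive pairs named, 98.4% to 99.8% of genes were less like the member than its partner was. These are descriptions over 10 mice in 5 groups, whose values share the libraries and any difference in sampling hour.

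**Figure D3:**
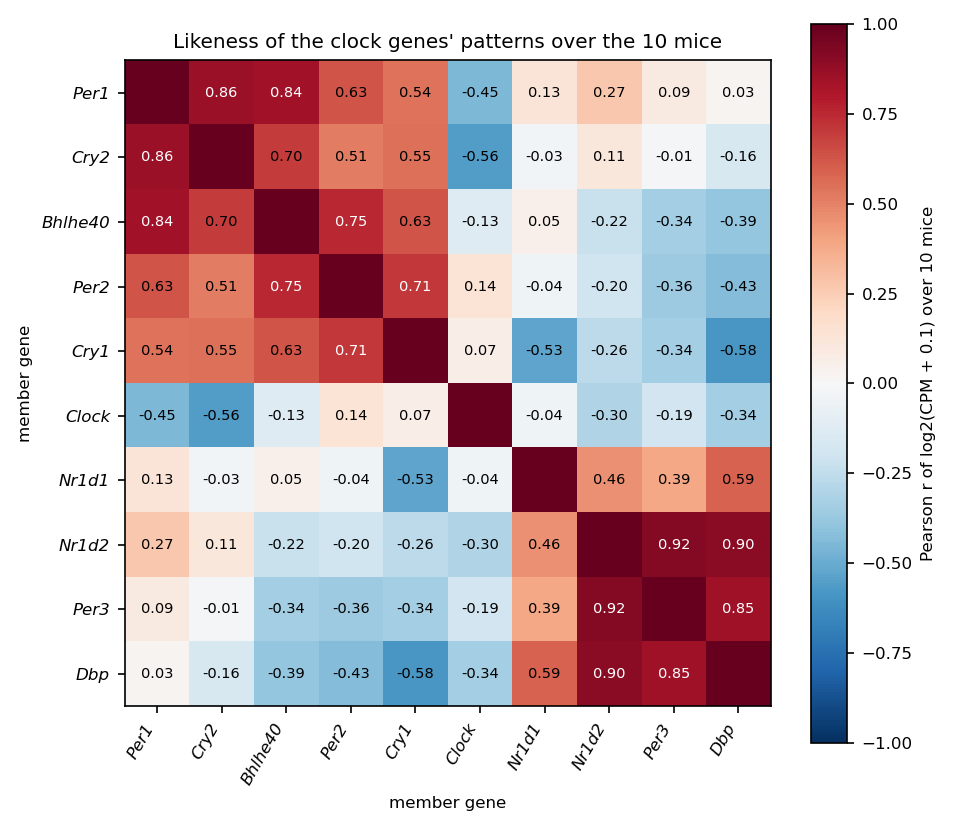
Pearson r of log2(CPM + 0.1) over the 10 mice for each pair of the 10 clock genes (rows and columns), with red for positive and blue for negative values. Per3, Dbp and Nr1d2 form a block with r of 0.85 to 0.92, and Per1 is most like Cry2 (0.86) and Bhlhe40 (0.84).

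Among 14220 genes with a mean of at least 1 CPM, the genes whose pattern over the 10 mice was most like a member's were as follows. Pdzrn3 (r = 0.97) and Prox1 (r = 0.94) came first for Per1, and Ipmk (r = 0.90) for Per2. Prox1 is also among the hippocampal excitatory neuron markers. The 4 of these in the table, Prox1 included, summed to 367 and 307 CPM before SE and to 220 and 266 CPM at 6 h. That sum does not give the level of Prox1 alone. The part of these neurons in the level of Per1 was not tested. Spon1 (r = 0.98) led for Per3, Prkab2 (r = 0.98) for Cry1 and Zfp711 (r = 0.98) for Cry2. For Dbp it was Pnma3 (r = 0.98), for Nr1d2 the long noncoding RNA Miat (r = 0.96), for Nr1d1 Gm12892 (r = 0.94) and for Clock 4921524J17Rik (r = 0.92). Bhlhe40 was most like Dusp10 (r = 0.93), Plk2 (r = 0.92) and Mafk (r = 0.91). These genes were found by search among all of that number, so their r carries no test.

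The rest of the pathway was followed in a list of 24 further genes, of which 23 are in the table. Limma called 1 of them, Nfil3 (chr13:53062578-53076442), the repressor at D-boxes, in SE 6 h and in SE 2 days against pre-SE, and in the F test over the 5 groups (adjusted p = 0.0325), and called none in the other comparisons. Nfil3 was 7.1 and 11.2 CPM before SE, 72.1 and 99.4 CPM at 6 h, 37.8 and 16.98 CPM in the SE + LEV 6 h mice, 29.2 and 62.8 CPM at 2 days and 25.3 and 8.58 CPM in the SE + LEV 2 days mice. Both SE groups lay wholly above pre-SE, and both lay wholly above the LEV group of the same interval. Of all genes, 49.9% at 6 h and 52.0% at 2 days kept SE and pre-SE apart, in either direction. For LEV against SE the shares were 29.5% and 27.4%. It rose 9.35-fold at 6 h, a log2 difference of 3.23 (95% interval 1.97 to 4.49, adjusted p = 0.0149 by limma), and 5.01-fold at 2 days, a log2 difference of 2.25 (95% interval 0.99 to 3.51, adjusted p = 0.0471). The 6 h call held in 18 of 21 alternatives and was lost in limma without pre-SE replicate 1 (adjusted p = 0.107), SE 6 h replicate 1 (0.0631) or SE 6 h replicate 2 (0.141). The 2 days call held in 9 of 21 alternatives. It was lost in edgeR (adjusted p = 0.0543) and in limma at every other pseudocount, after rescaling by the median of ratios, without the mean-variance trend, and without pre-SE replicate 1 (0.271) or 2 (0.0904), SE 6 h replicate 1 (0.0692) or 2 (0.0698) or SE 2 days replicate 2 (0.394). With LEV, Nfil3 differed from the SE group by -1.74 on the log2 scale at 6 h (adjusted p = 0.79 by limma) and by -1.53 at 2 days (adjusted p = 1), neither of which passed.

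Tef and Hlf, the other activators at D-boxes, were not called by limma. At 2 days they were 0.467 and 0.327 times the pre-SE mean, with log2 differences of -1.09 (adjusted p = 0.192 by limma) and -1.56 (adjusted p = 0.19), beside -1.90 for Dbp. Hlf was called by DESeq2 (adjusted p = 0.0404) and, like Dbp, by limma without SE + LEV 2 days replicate 1 (0.0269) or replicate 2 (0.0274). In the SE + LEV 2 days group, Hlf was 18.6 and 91.3 CPM and Tef 76.4 and 198 CPM, high in the same replicate 2 as Dbp, Per3 and Nr1d2. The ratio of Nfil3 to Dbp, chosen after its values were seen, was 0.15 and 0.498 before SE, 5.99 and 11.5 at 6 h, 1.98 and 1.57 in the SE + LEV 6 h mice, 2.17 and 11.2 at 2 days and 4.18 and 0.34 in the SE + LEV 2 days mice. Each mouse given PILO except that replicate 2 exceeded both pre-SE mice.

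**Figure D4:**
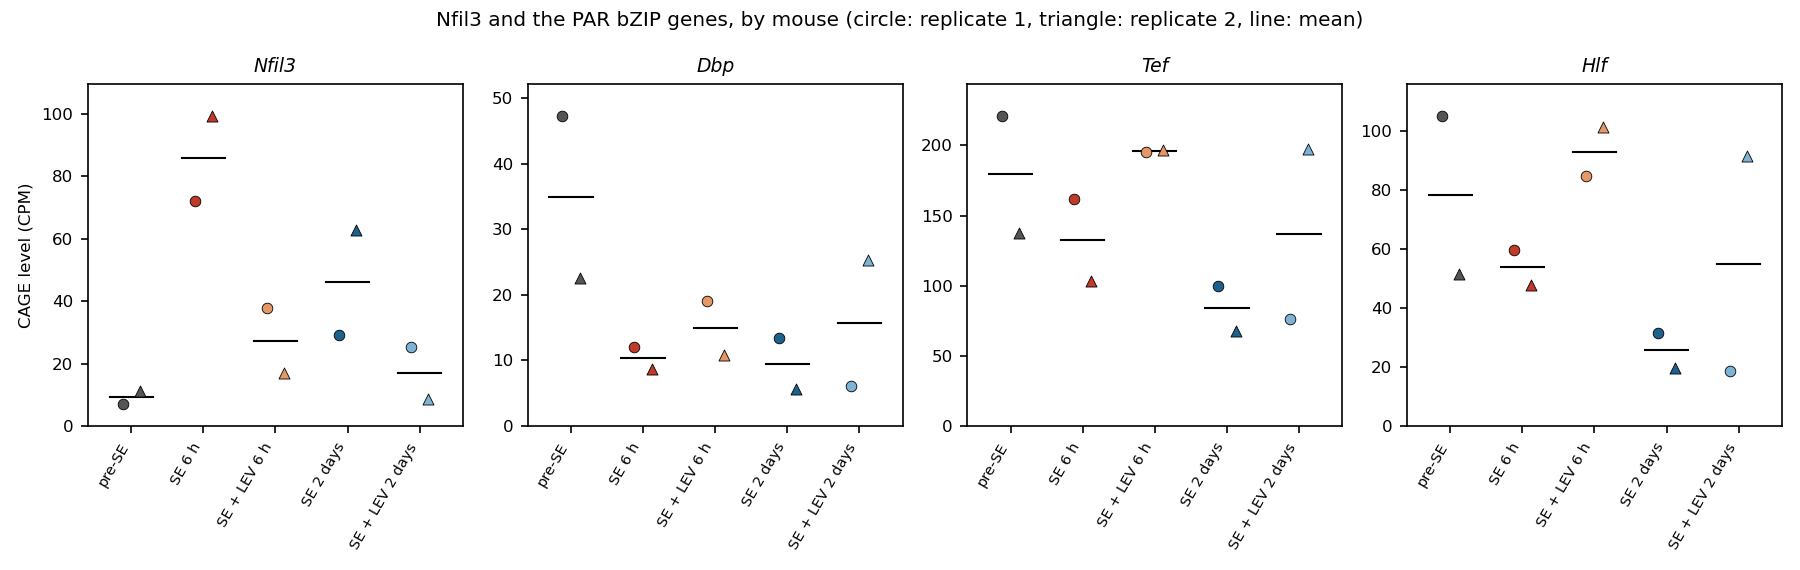
CAGE level in CPM (vertical axes, each from 0) of Nfil3, Dbp, Tef and Hlf in the 2 mice of each group, drawn as circles (replicate 1) and triangles (replicate 2) with the group mean as a line. Nfil3 is highest in the SE 6 h mice, at 72.1 and 99.4 CPM, while Dbp, Tef and Hlf are high in SE + LEV 2 days replicate 2 and low in replicate 1.

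Of the other groups of that list, the activators Arntl, Arntl2 and Npas2, the repressors Bhlhe41, Gm129 (Ciart) and Timeless, the receptors Rora and Rorb, the 8 kinase and ubiquitin ligase genes and the 4 outputs Wee1, Nampt, Usp2 and Ccrn4l (Noct) held 0 calls by limma in SE 6 h and in SE 2 days against pre-SE. The whole list of 23, Nfil3 included, had 4 genes at an unadjusted p under 0.05 at 6 h, beside 17.7% of all genes, and 7 at 2 days, beside 19.8%. For this list edgeR called 1 and 0, where it called 517 and 866 of all genes. DESeq2 called 1 and 4 of the list, where it called 1107 and 1607 of all genes. Arntl, the partner of Clock and a target of the Nr1d1 product, was 30.3 and 32.7 CPM before SE and 38.8 and 47.9 CPM at 6 h. That log2 difference was 0.45 (95% interval -0.04 to 0.95, adjusted p = 0.321 by limma). Arntl was 31.2 and 35.8 CPM in the SE + LEV 6 h mice and 34.3 and 35.6 CPM in the SE 2 days mice. In the SE + LEV 2 days mice it was 33.0 and 29.5 CPM. The median log2 difference of the 23 genes was -0.12 at 6 h and -0.13 at 2 days, beside -0.13 and -0.03 over all genes.

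Genes of the pathways known to act on the Per genes were set beside them. Of the 5 activity and cAMP responsive genes, limma called 4 higher at 6 h against pre-SE (Fos, Nr4a1, Sik1 and Crem), beside 2.96% of all genes called. It called 3 higher at 2 days (Fos, Nr4a1 and Sik1), beside 5.66%. Egr1 was also higher, by 3.3 on the log2 scale at 6 h (adjusted p = 0.0584 by limma) and by 2.43 at 2 days (adjusted p = 0.115). At 6 h and 2 days edgeR called 4 and 2 of the 5, and DESeq2 5 and 3. In the LEV comparisons limma and edgeR called 0 of the 5 at either interval, although 4 had an unadjusted p under 0.05 at each, and DESeq2 called 1 at 6 h and 0 at 2 days. Of the 4 glucocorticoid responsive genes, Fkbp5, Tsc22d3, Sgk1 and Zbtb16, limma and edgeR called 0 against pre-SE at 6 h and at 2 days, with 1 at an unadjusted p under 0.05 and 1 called by DESeq2 at each. Of the 4 temperature responsive genes, Cirbp, Rbm3, Hspa1b and Hsph1, limma and edgeR called 0 against pre-SE at either interval. At 6 h 2 of them had an unadjusted p under 0.05, and DESeq2 called 2, and at 2 days both counts were 0. In SE + LEV 6 h against SE 6 h, Hspa1b (-2.92 on the log2 scale) and Hsph1 (-2.2) had an unadjusted p under 0.05. DESeq2 called 2 of the 4 there, and limma and edgeR 0. In SE + LEV 2 days against SE 2 days all these counts were 0, as for the glucocorticoid set in both LEV comparisons. In SE 2 days against SE 6 h, limma called Sik1, Crem and Hspa1b, all lower, and 0 glucocorticoid genes.

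Library depth and tissue composition were read from the same table. The libraries held 10540698 to 51710968 tags, so 3 tags corresponded to 0.058 to 0.285 CPM, far below every member. Neuronal markers summed to 8383 and 9662 CPM before SE and to between 4550 and 8751 CPM after it, with 0 of 6 called by limma or edgeR at 6 h or 2 days (0 and 2 at an unadjusted p under 0.05, and 0 and 1 by DESeq2), and hippocampal excitatory markers were present at 137 to 367 CPM in every library. Ttr, a defining transcript of choroid plexus, ranged from 4.33 to 3936 CPM and divided the mice within groups. In replicates 1 and 2 it was 5.83 and 1668 CPM before SE, 4.33 and 3936 CPM at 6 h, 843 and 30.0 CPM in the SE + LEV 6 h mice, 55.6 and 13.5 CPM at 2 days and 1475 and 18.9 CPM in the SE + LEV 2 days mice. Over the same groups, in that order, the log2 gap between mice (replicate 2 minus replicate 1) was 0.10, 0.06, -1.24, -0.31 and 0.24 for Per1, 0.13, -0.08, 0.30, -1.31 and 2.01 for Per3, and -1.06, -0.47, -0.81, -1.25 and 2.04 for Dbp. It was 0.13, 0.63, -0.34, 0.32 and 0.22 for Cry2 and 0.48, -0.60, 0.42, 0.31 and -0.10 for Cry1. The part of choroid plexus in these gaps was not tested. Dbp overlaps Sphk2 (16.0 to 30.6 CPM), Nr1d1 overlaps Thra (261 to 523 CPM), Cry2 overlaps D930015M05Rik and Bhlhe40 overlaps 0610040F04Rik, each on the opposite strand. Whether the gene totals used strand is not given in the sources used here, and without it tags of such genes cannot be told apart.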

How the data were processed

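CAGE was performed on whole hippocampal RNA of 10 mice, 2 in each of 5 groups taken from the sample labels. According to the methods and processing notes, alignment by the authors was to mm9, first with BWA 0.7.17 and, for what stayed unmapped, with HISAT2 2.0.5. RECLU made tag clusters, of which those below 0.1 CPM were dropped, bedtools 2.12.0 and edgeR 3.22.5 were also used, and the deposited values are CPM per gene. The way gene totals were formed from clusters is not given in the sources used here.

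Genes had to reach 0.1 CPM in 2 or more libraries, which kept 15851 genes and all 10 members. Log2(CPM + 0.1) was fitted with 5 group means in limma 3.58.1 (R 4.3.3, with a mean-variance trend), two-sided, with Benjamini-Hochberg adjustment over all genes and calls at 0.05. Fold changes on this scale understate changes of low genes. Tag counts were recovered from the steps of the CPM values, which came out whole within rounding for 100% of values, and gave totals of 10540698 to 51710968 per library. They were tested with edgeR 4.0.16 and DESeq2 1.42.0 as alternatives, and the fits were tested on simulated data. All 15900 gene IDs matched GENCODE vM1, which gave the mm9 positions. Promoter sequences are from RefSeq. The members and gene lists were chosen with earlier results of these data known. All 10 members and any called gene of the pathway list are named, with the 3 genes most like each member searched by Pearson r. Nothing in the labels says that same-numbered mice are related.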

Additional observations from a re-analysis of the deposited data

How the results depend on the processing

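Each group held 2 mice, which limits what the tests could call, while the lowest count behind a member was 114 tags. In all, 22 alternatives were run. DESeq2 called 2 members in SE 6 h against pre-SE (Cry1 and Per1), 2 in SE 2 days against pre-SE (Nr1d2 and Dbp), 1 in SE 2 days against SE 6 h (Per1), 1 in SE + LEV 2 days against SE + LEV 6 h (Per1) and 3 over the 5 groups. Over all 15851 genes it called 1107, 1607, 1293, 626 and 2195 in those comparisons, in that order. Limma on only the groups compared called 1 member in SE 2 days against SE 6 h. Leaving out each mouse in turn gave 0 to 1 called members in SE 6 h against pre-SE, 0 to 3 in SE 2 days against pre-SE, 0 to 1 in SE 2 days against SE 6 h, 0 to 1 in SE + LEV 2 days against SE + LEV 6 h and 0 to 1 over the 5 groups. Other pseudocounts, other filters on low values, rescaling by the median of ratios, no mean-variance trend and edgeR left the count at 0 in every comparison.

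Same-numbered mice share only a number: their deviations correlated at -0.44 to 0.34 over the comparisons. With the replicate number as a block the count of called members stayed at 0 in every comparison, and with the numbers of the SE + LEV 2 days mice crossed, an alternative chosen after seeing the data, it was 0 in SE + LEV 2 days against SE 2 days and against pre-SE, the comparisons it was run for. The replicate block did end the Nfil3 call at 2 days (adjusted p = 0.0732 by limma).

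Leaving out each mouse in turn turned the sign of some small log2 differences. The ranges were -0.49 to 0.18 for Clock in SE 6 h against pre-SE, -0.20 to 0.11 for Per1 and -0.16 to 0.16 for Cry2 in SE 2 days against pre-SE, -0.73 to 0.50 for Per1 in SE + LEV 6 h against SE 6 h, and -0.15 to 1.86 for Per3, -0.51 to 1.53 for Dbp and -0.23 to 0.82 for Nr1d2 in SE + LEV 2 days against SE 2 days. Over all genes, limma called 469 in SE 6 h and 897 in SE 2 days against pre-SE, DESeq2 called 1107 and 1607, and leaving out a compared mouse gave as few as 113 and 248.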
